A study of Homo sapiens with 3 samples.

Results

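The small nucleolar RNA host genes (SNHG genes) examined here are SNHG1, SNHG3, SNHG5, SNHG6, SNHG7, SNHG8, SNHG12, SNHG15, SNHG16 and GAS5. These 10 of 64449 annotated genes were taken by name from a list drawn up with earlier results of these data known, and every YTHDC1 peak inside the gene or within 1000 bases of it was collected. This gave 12 of the 6368 peaks of a single peak set. The set came from ChIP-seq of YTHDC1, the nuclear reader of N6-methyladenosine in RNA, in the lung adenocarcinoma cell line A549. The 3 samples were replicates of 1 group with no knockdown or other treatment named in the labels, and the authors pooled their reads before calling peaks. The file therefore held no value per replicate, the depth was unknown, and no value below carries an error or a test. The labels do not state if the replicates were separate cultures.

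A host gene of this family is transcribed and spliced like a messenger RNA, but its product is mostly carried in the introns. Each intron that holds a small nucleolar RNA (snoRNA) is cut out, opened and trimmed until only the snoRNA with its bound proteins remains. Box C/D snoRNAs, named SNORD, guide 2'-O-methylation of ribosomal RNA with the methyltransferase fibrillarin, and box H/ACA snoRNAs, named SNORA, guide pseudouridylation with dyskerin. The joined exons of hosts such as GAS5 begin with a stretch of C and T, the 5' TOP feature shared with ribosomal protein genes, and many of these spliced RNAs are degraded when they are translated. In RefSeq, 36 snoRNA genes lie in the 10 hosts, of which 25 are box C/D and 10 box H/ACA by name and 1 has only a locus name. GAS5 carries 11 and SNHG1 carries 9, whereas SNHG6, SNHG8 and SNHG15 carry 1 each.

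Only 4 of these snoRNAs have a position in the GENCODE annotation of the assembly used for the peaks, so only their place against the peaks could be measured. They are shown with exact copies of the box C letters TGATGA and the box D letters CTGA in capitals. Both were searched only in the SNORD genes, on the snoRNA's own strand. All coordinates are on hg19.
SNORD78 (chr1:173834760-173834824, minus strand): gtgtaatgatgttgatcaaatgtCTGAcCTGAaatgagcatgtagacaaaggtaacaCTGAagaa
SNORD99 (chr1:28905261-28905334, minus strand): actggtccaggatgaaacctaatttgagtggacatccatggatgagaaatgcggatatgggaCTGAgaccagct
SNORD1B (chr17:74557191-74557274, plus strand): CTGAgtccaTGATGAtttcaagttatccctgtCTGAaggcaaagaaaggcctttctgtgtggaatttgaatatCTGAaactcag
SNORA73B (chr1:28835071-28835274, plus strand): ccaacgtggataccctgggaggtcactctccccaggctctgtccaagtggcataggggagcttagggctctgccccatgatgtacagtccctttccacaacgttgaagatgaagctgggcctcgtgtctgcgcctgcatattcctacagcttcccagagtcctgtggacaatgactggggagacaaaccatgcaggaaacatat
SNORD1B held TGATGA once, starting at base 10, and its last CTGA started at base 74 of 84. SNORD99 and SNORD78 held no exact TGATGA and had their last CTGA at base 63 of 74 and base 58 of 65. SNORA73B, a box H/ACA snoRNA of 204 bases, was not searched for these boxes.

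None of these 4 snoRNAs lay under a peak. SNORA73B in SNHG3 was closest, at 960 bases from a peak on its 3' side. SNORD78 in GAS5 lay 1953 bases from a peak on its 3' side, SNORD99 in SNHG12 lay 2348 bases from a peak on its 5' side, and SNORD1B in SNHG16 lay 20015 bases from the nearest peak, which was on its 5' side and outside the collected region. Among the other snoRNAs inside protein-coding or lncRNA hosts, 6 of 721 (0.832%) lay under a peak. With 4 snoRNAs, a count of 0 is close to what that share would give. The remaining snoRNAs of the 10 hosts were not analysed here.

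At the level of the whole gene, 9 of the 10 hosts had a peak, 6 of them with 1 and SNHG1, SNHG3 and SNHG16 with 2. Counted in the same way, 7218 of all 64449 genes (11.2%), 1791 of 18702 lncRNA genes (9.58%) and 157 of 532 other snoRNA host genes (29.5%) had a peak. Among sets closer to the hosts, 11 of 22 other SNHG genes (50%) had a peak. The count was 138 of 674 (20.5%) for other lncRNA genes tagged as hosts of noncoding RNA. None of these sets was matched to the hosts for expression. The median annotated span was 6226 bases for the 10 hosts and 6231 bases for lncRNA genes. It was 12123 bases for the other SNHG genes, 48868 bases for the tagged lncRNA genes and 65863 bases for the other snoRNA hosts. These 3 sets therefore offered more room for a peak. Without the 1000 flanking bases the count was 8 of 10, the change being SNHG15, beside 9.06% of all genes. Over their spans with flanks the 10 hosts had 57.5 peaks per Mb, and 107 per Mb without SNHG16, beside 3.03 per Mb over all annotated genes, merged. These densities are not like for like. Short spans with flanks hold more sequence near starts, where 53.3% of all peaks lay, and the merged genes include spans of up to 2473540 bases. No density was computed for genes of similar length. SNHG16 is set apart because its annotated span is 113259 bases, whereas the other 9 hosts span from 3943 bases in SNHG15 to 28442 bases in SNHG5.

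At the starts the picture differed. A peak lay within 200 bases of an annotated transcript start in 3 of the 10 hosts, SNHG1, SNHG5 and SNHG12. The same count gave 6.36% of all genes, 4.2% of lncRNA genes and 17.7% of other snoRNA host genes. These shares are not like for like, because a gene with more annotated starts offers more windows. SNHG1 has 26 distinct starts, SNHG5 has 15 and SNHG12 has 13, whereas SNHG3 has 3. The shares were not adjusted for the number of starts per gene. In each of the 3 hosts the start concerned was used by a single annotated transcript, of 80 in SNHG1, 89 in SNHG5 and 19 in SNHG12. At the 5' end of the gene none of the 10 hosts had a peak within 200 bases, beside 4.43% of all genes, 3.55% of lncRNA genes and 9.21% of other snoRNA host genes, and 0 of 10 is not far from any of these shares. The count was also 0 at the commonest start of each host, meaning the start with the most annotated transcripts, beside 4.63% of all genes. That start was used by over 50% of the transcripts in SNHG5 (61 of 89), SNHG7 (6 of 10) and GAS5 (50 of 91) and by fewer in the other hosts, down to 2 of 14 in SNHG15.

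**Figure D1:**
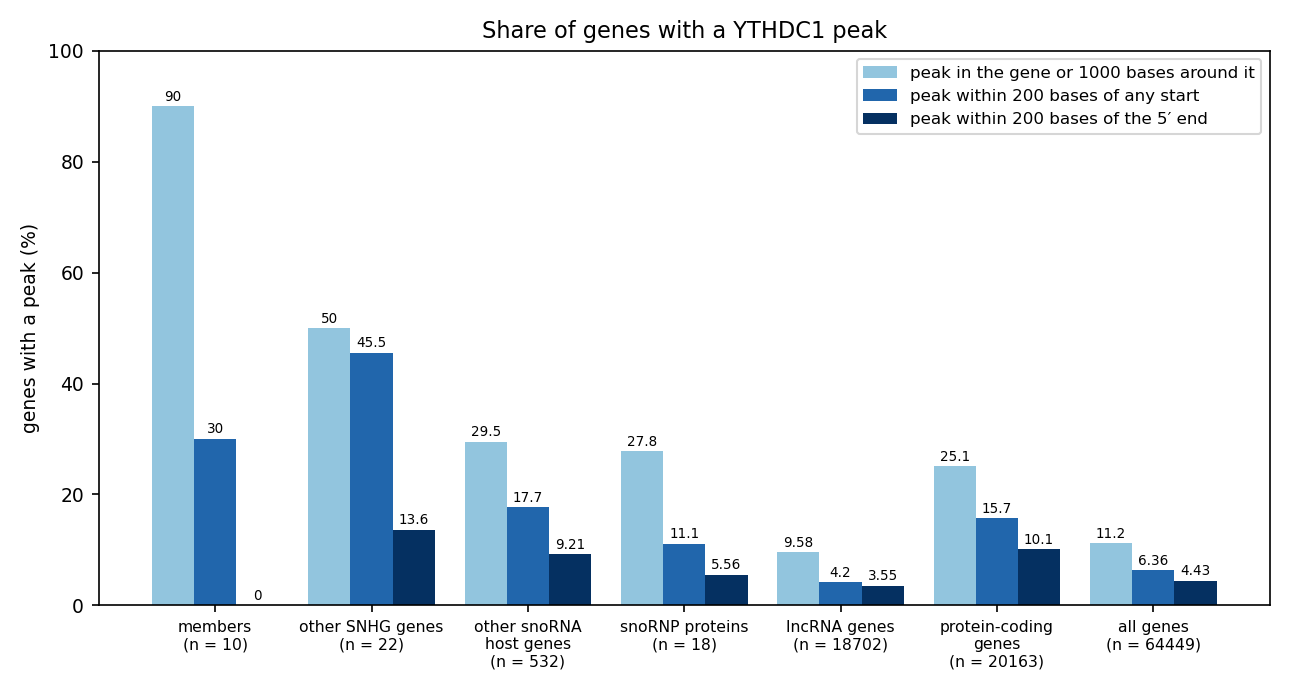
Percent of genes (vertical axis) with a YTHDC1 peak in the gene or 1000 bases around it, within 200 bases of any annotated start, and within 200 bases of the 5' end, for the 10 hosts and 6 other gene sets, with the number of genes under each. The hosts stand at 90% for the first count, 30% for the second and 0% for the third, and all other sets have a bar above 0 for each count.

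All 12 peaks had their midpoint downstream of the commonest start of the host. In every host the searched region reached farther downstream of that start than upstream, so the search itself favoured a downstream midpoint. Downstream midpoints were also usual at other SNHG genes, on another measure and for start peaks only. Among the strongest start peaks of 10 other SNHG genes, only that of SNHG30 had its midpoint upstream of the gene's 5' end (-147 bases). The 5' end is the most upstream start, which itself favours a downstream midpoint. Measured from the 5' end, all 12 peaks of the hosts also had a downstream midpoint. From the commonest start to the nearest edge of a peak, SNHG12 was closest at 221 bases. It was followed by SNHG5 at 257, SNHG6 at 499, SNHG3 at 582 and SNHG1 at 968. Larger gaps of 2355, 4320 and 4625 bases were found for SNHG8, GAS5 and SNHG15. In SNHG16 the nearest peak of all lay 16672 bases upstream and outside the gene. SNHG3 has 3 annotated transcripts with 3 different starts, so its commonest start is only the one farthest 5'.

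**Figure D2:**
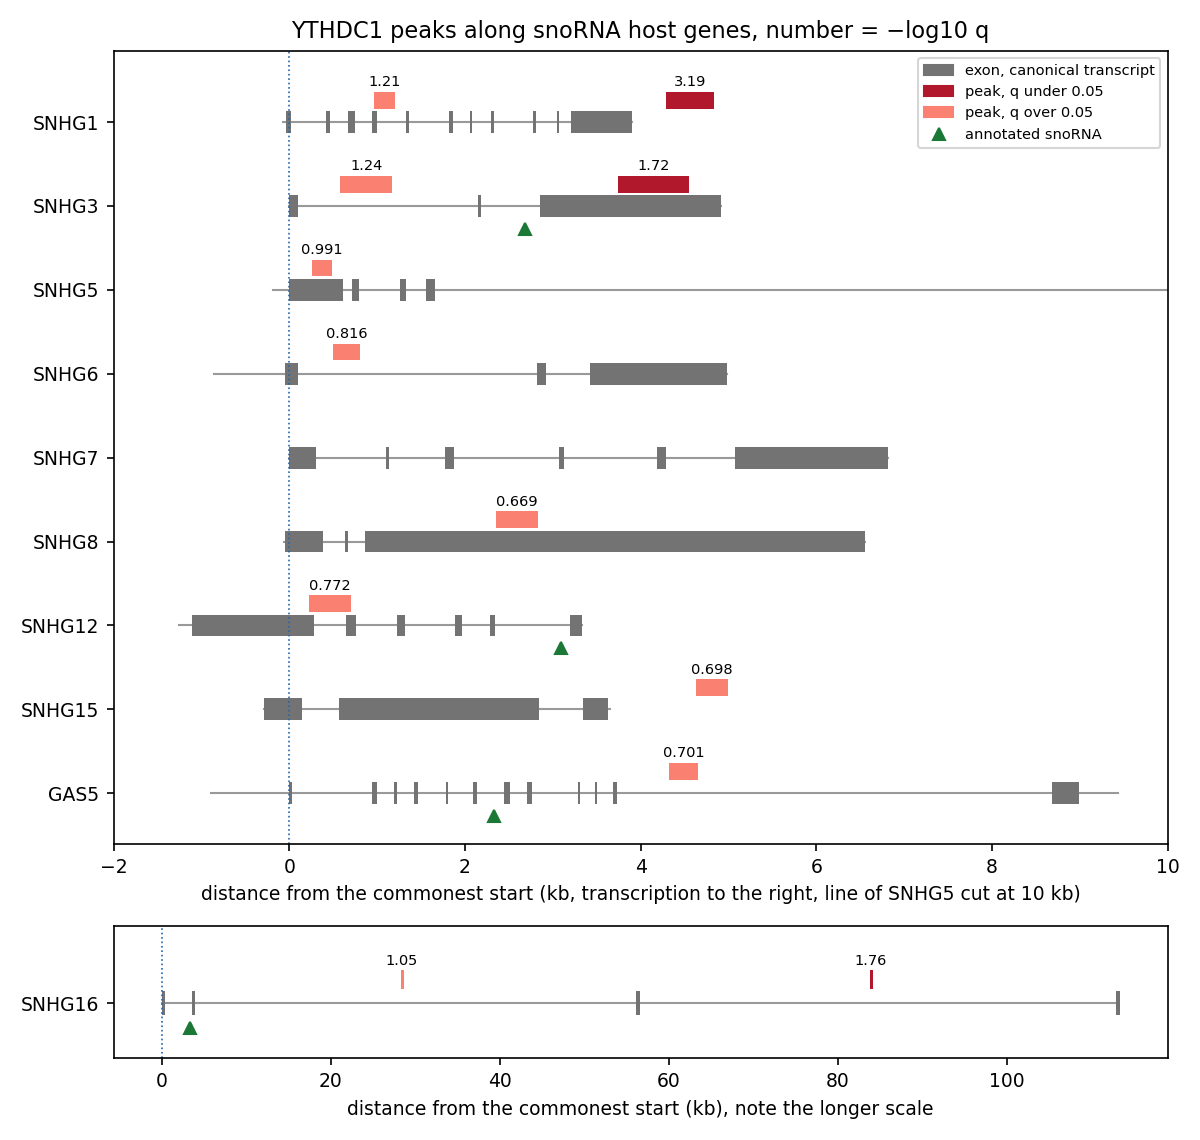
Peaks (boxes above the lines, labelled with their −log10 q), exons of the canonical transcript (grey) and annotated snoRNAs (triangles) along each host, with distance in kb from the commonest start on the horizontal axis and SNHG16 on a longer scale. No peak touches the dotted line at 0, SNHG7 has no peak, and the 3 peaks with a q-value under 0.05 lie at SNHG1, SNHG3 and SNHG16.

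In strength the peaks at these hosts ranked low. The value given by the authors' caller was read as −log10 of the q-value, and its median was 1.02 over the 12 peaks (range 0.669 to 3.19), beside 1.33 over all peaks. A q-value under 0.05 was reached by 3 of the 12 peaks (25%) and by 3317 of all peaks (52.1%). Of the 12 peaks, 9 lay below the median of all peaks, and 4, at SNHG8, SNHG15, GAS5 and SNHG12, lay in the lowest 10%. The widths were ordinary, with a median of 350 bases (range 232 to 808) beside 348 over all peaks.

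**Figure D3:**
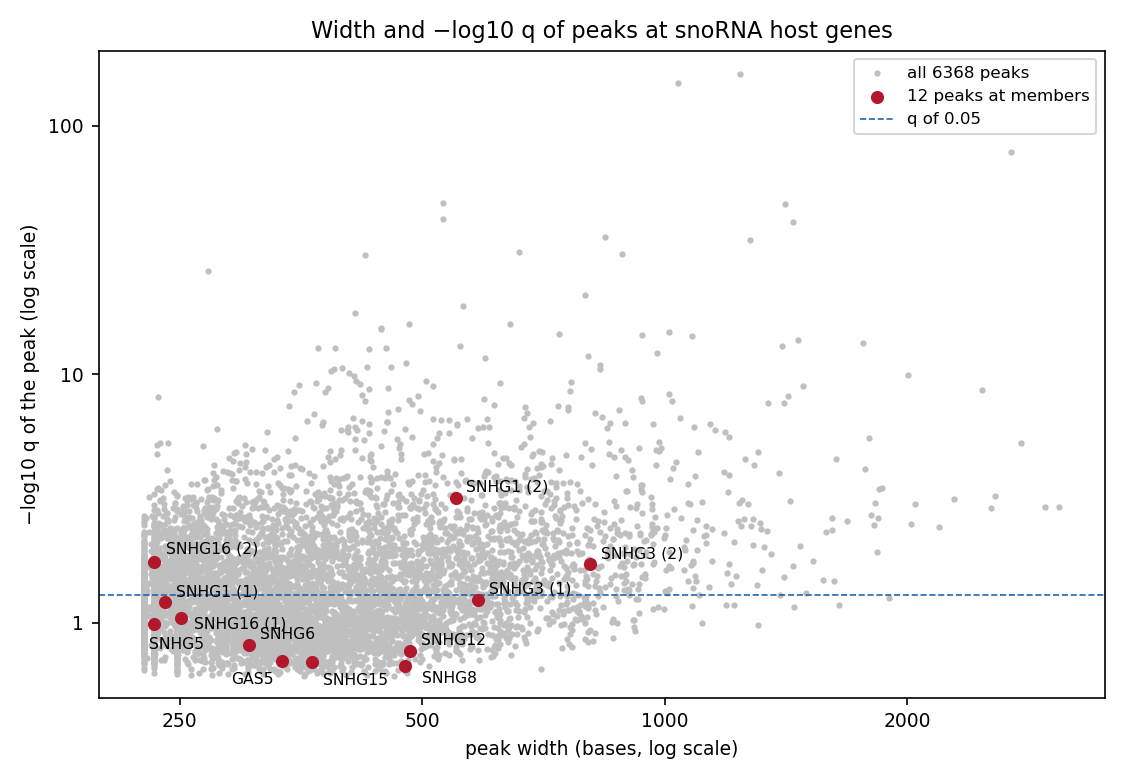
Peak width in bases (horizontal axis, log scale) and −log10 q (vertical axis, log scale) of all 6368 peaks (grey) and the 12 peaks at the hosts (red), with (1) and (2) numbering a host's peaks in the direction of transcription. 3 red points lie above the dashed line at a q-value of 0.05, and the red points span widths from 232 to 808 bases.

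SNHG1, which carries a series of SNORD genes in its introns, had the strongest of the 12 peaks and a second, weaker one. The weaker peak covered the end of exon 4 and the beginning of intron 4 of the 11-exon canonical transcript. It was 240 bases wide with a −log10 q of 1.21 (q = 0.0621), higher than 41.8% of all peaks, and 63 of the 80 annotated transcripts had an exon under it. Its edge was 166 bases from a start used by 1 transcript. The stronger peak did not lie in the gene but 381 bases beyond its 3' end. It was 550 bases wide with a −log10 q of 3.19 (q = 0.000651), higher than 92.9% of all peaks. The weaker peak is shown whole in the direction of transcription, with the bases of exon 4 in capitals.
SNHG1, exon 4 and intron 4 (chr11:62622150-62622389, minus strand): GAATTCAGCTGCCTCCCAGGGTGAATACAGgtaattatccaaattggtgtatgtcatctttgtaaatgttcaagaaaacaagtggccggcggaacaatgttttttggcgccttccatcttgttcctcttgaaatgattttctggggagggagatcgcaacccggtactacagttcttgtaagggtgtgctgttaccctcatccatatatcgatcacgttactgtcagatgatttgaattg
This sequence held no 31-mer that occurs more than once in the assembly. In the stronger peak 29% of the 31-mers were repeated, and the commonest of them occurred 4657 times. Reads from such sequence can be placed at more than a single locus, and the part of this in the peak was not tested. SLC3A2, the gene for the heavy chain of several amino acid transporters, starts on the other strand 119 bases from the commonest start of SNHG1, and no peak lay at that start.

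SNHG5, the host of SNORD50A and SNORD50B, had 1 peak, which lay wholly inside exon 1 of the 6-exon canonical transcript. It was 232 bases wide with a −log10 q of 0.991 (q = 0.102), higher than 25.6% of all peaks. An annotated start lay under it, but 1 of 89 transcripts used that start, while 61 of the 89 used a start 257 bases upstream of the peak's edge. An exon of 53 transcripts lay under the peak. It is shown whole, in capitals throughout because all of it is exon.
SNHG5, exon 1 (chr6:86387978-86388209, minus strand): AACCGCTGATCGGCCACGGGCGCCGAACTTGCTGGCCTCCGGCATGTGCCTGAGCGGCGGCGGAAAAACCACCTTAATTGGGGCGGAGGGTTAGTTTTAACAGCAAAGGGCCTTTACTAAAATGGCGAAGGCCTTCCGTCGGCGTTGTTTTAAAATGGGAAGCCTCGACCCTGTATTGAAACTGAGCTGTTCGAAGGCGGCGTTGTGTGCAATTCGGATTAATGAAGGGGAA
It had a GC content of 54.3% and, the highest CpG ratio (observed over expected) of the 12 peaks, 1.15. None of its 31-mers was repeated. A protein-coding gene, ENSG00000271793, also overlaps this peak and has a start 242 bases from it, beside 257 bases for the commonest start of SNHG5.

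The transcript starts themselves are shown for GAS5, SNHG12 and SNHG8, whose commonest start opens a run of at least 5 C or T, and for SNHG5, whose commonest start does not. Each line gives 20 bases before and 30 bases from the commonest start, with the run in capitals. Only a run that begins at the exact annotated base was counted. Its absence therefore does not show that a host lacks the 5' TOP feature.
GAS5 (chr1:173837098-173837147, minus strand): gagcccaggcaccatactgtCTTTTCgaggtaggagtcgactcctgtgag
SNHG12 (chr1:28908356-28908405, minus strand): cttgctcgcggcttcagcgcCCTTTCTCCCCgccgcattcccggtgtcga
SNHG8 (chr4:119199893-119199942, plus strand): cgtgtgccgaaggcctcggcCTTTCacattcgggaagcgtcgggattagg
SNHG5 (chr6:86388437-86388486, minus strand): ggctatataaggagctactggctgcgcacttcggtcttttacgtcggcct
The run was 6 bases long in GAS5, where 50 of 91 transcripts use the start, 11 in SNHG12 (4 of 19 transcripts) and 5 in SNHG8 (5 of 15). With SNHG6, where it was 7 bases long, 4 of the 10 hosts had a run of 5 or more, beside 4.1% of 64449 genes and 5.79% of lncRNA genes. In 250 bases before and 50 after the commonest start, searched on both strands, GGGCGG was found in 9 of the 10 hosts (27.2% of all genes, 54.2% of protein-coding genes), the exception being SNHG3. TATAAA was found in SNHG1 and SNHG7 (17.4% of all genes), CACGTG in SNHG7 and GAS5 (5.57%), CCGGAAG in SNHG3 and SNHG6 (6.09%) and AAGATGG in SNHG16 (6.76%). No peak lay within 200 bases of any of these 10 starts.

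SNHG3, the host of SNORA73A and SNORA73B, lies inside RCC1, the gene for the nucleotide exchange factor of Ran, on the same strand. Its first peak (chromosome 1, 28833074 to 28833660, 587 bases) lay in intron 1 of 3 exons, with a −log10 q of 1.24 (q = 0.0578), higher than 44% of all peaks. It was 211 bases from the nearest start of SNHG3, just outside the window of 200 bases, and 20.1% of its 31-mers were repeated, the commonest 2331 times. The second peak (28836234 to 28837041) was with 808 bases the widest at any of the hosts. It lay in exon 3 with a −log10 q of 1.72 (q = 0.019), higher than 68.3% of all peaks, and 2.19% of its 31-mers were repeated. A start of RCC1 lay under it, so this peak cannot be assigned to SNHG3 rather than RCC1.

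SNHG16, the host of SNORD1A, SNORD1B and SNORD1C, had both its peaks far from its snoRNA-bearing 5' part. The first (chromosome 17, 74582101 to 74582351, 251 bases) lay in intron 2 of the 4-exon canonical transcript, 28378 bases downstream of the commonest start. It covered a start of ST6GALNAC2, a sialyltransferase gene, and had a −log10 q of 1.05 (q = 0.09). Its GC content of 76.5% was the highest of the 12 peaks and higher than that of 97% of all peaks. The second (74637647 to 74637878, 232 bases) lay in intron 3, 83914 bases downstream of the commonest start and inside the sialyltransferase gene ST6GALNAC1, 1864 bases from the nearest start of that gene. Its −log10 q of 1.76 (q = 0.0175) was higher than that of 69.6% of all peaks. Within the span shared by at least 50% of its annotated transcripts, SNHG16 had no peak, so both values depend on the long annotated form. A lncRNA gene, ENSG00000267546, starts 83 bases away on the other strand, and no peak lay at its start.

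GAS5, named for its accumulation in growth-arrested cells, had 1 weak peak (chromosome 1, 173832473 to 173832807, 335 bases). The peak lay in intron 11 of 12 exons, 4487 bases downstream of the commonest start, and overlapped the lncRNA gene GAS5-AS1, which is transcribed from the other strand. No annotated exon of GAS5 lay under it. Its −log10 q was 0.701 (q = 0.199), higher than 2.8% of all peaks. It held no CpG, with a GC content of 39.4%. ZBTB37, a zinc finger gene, starts 93 bases from the commonest start of GAS5 on the other strand, and no peak lay at that start.

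SNHG12, which carries 3 SNORA genes and SNORD99, had a peak at the boundary of its first exon and intron (chromosome 1, 28907682 to 28908164, 483 bases), reaching into exon 2 of 6. A start used by 1 of 19 transcripts lay under it, and 17 transcripts had an exon there. Its −log10 q of 0.772 (q = 0.169) was higher than that of 7.02% of all peaks.

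SNHG8, the host of SNORA24, had the weakest of the 12 peaks (chromosome 4, 119202268 to 119202743, 476 bases), with a −log10 q of 0.669 (q = 0.214), higher than 1.26% of all peaks. It lay in exon 3 of the canonical transcript, an exon stretch that 1 of 15 transcripts has, and inside PRSS12, a serine protease gene. With a GC content of 35.9% it was the poorest in GC of the 12 peaks. SNHG15, the host of SNORA9, had its peak (chromosome 7, 45021278 to 45021642, 365 bases) 976 bases beyond its 3' end, close to the limit of 1000 bases. Its −log10 q was 0.698 (q = 0.2), and 18.8% of its 31-mers were repeated, the commonest 277 times.

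SNHG6, the host of SNORD87, had a peak in intron 1 (chromosome 8, 67836973 to 67837277, 305 bases) at 499 bases from its nearest annotated start. Its −log10 q was 0.816 (q = 0.153), higher than 10.8% of all peaks. SNHG7, the host of SNORA17A and SNORA17B, was the exception with no peak: the nearest lay 34287 bases downstream of its commonest start, well outside the gene of 6819 bases.

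In base composition the 12 peaks were on the whole poorer in GC than the peak set, with a median of 48.9% beside 61.2% and a median CpG ratio of 0.477 beside 0.69. Repeated 31-mers occurred in 4 of the 12 (33.3%) and in 17.3% of all peaks. By position, 5 of the 12 peaks (41.7%) lay within 200 bases of a start of any gene, 3 at a start of the host and 2 at a start of RCC1 or ST6GALNAC2, beside 53.3% of all peaks. Of the 9 hosts with a peak, 33.3% had it at a start of their own, whereas 56.8% of all genes with a peak did.

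Among the other SNHG genes, peaks lay mostly near an annotated start, though mostly not at the 5' end of the gene. Of those with a peak, 90.9% had it at a start, beside 56.8% of all genes with a peak. At the 5' end the shares were 27.3% and 39.5%. Of 22, which include ZFAS1, DANCR and EPB41L4A-AS1, 11 had a peak and 10 had it within 200 bases of a start, and 3 of them (SNHG17, SNHG25 and SNHG30) had it at the 5' end. SNHG25, a gene of 540 bases, had the strongest, with a −log10 q of 3.25. This peak was 2571 bases wide and lay mostly beyond the 3' end of the gene. SNHG25 was followed by EPB41L4A-AS1 (2.37), SNHG11 (1.89), SNHG26 (1.53), SNHG20 (1.4) and SNHG17 (1.39). Lower values were found for SNHG29 (1.18), SNHG28 (1.09), SNHG30 (0.966) and ZFAS1 (0.851). The start peaks of SNHG1 (1.21), SNHG5 (0.991) and SNHG12 (0.772) lay within or below the range of these 10 genes. The difference between the gene sets was not tested.

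**Figure D4:**
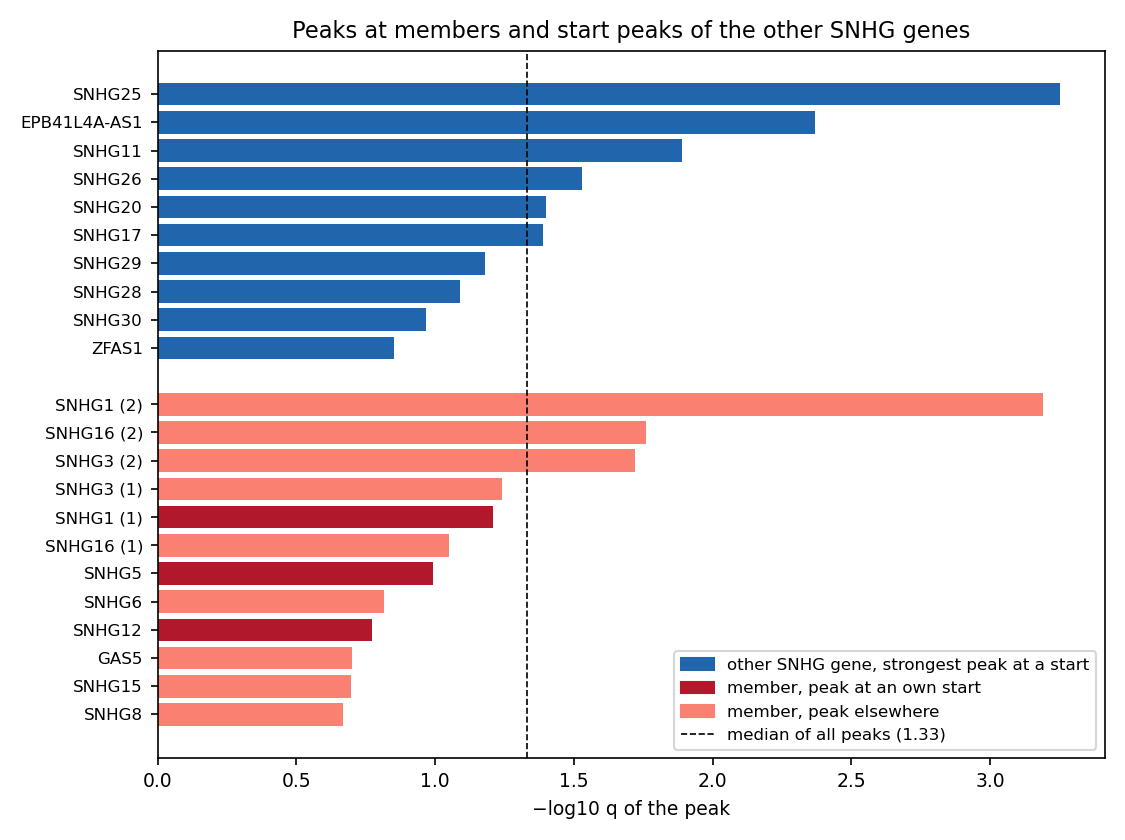
−log10 q (horizontal axis) of the 12 peaks at the hosts, dark red where the peak lies at a start of the host and light red elsewhere, and of the strongest start peak of the 10 other SNHG genes that have one (blue). The dashed line is the median of all peaks, 1.33, which 6 blue bars and 3 light red bars pass and no dark red bar does.

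Among the remaining snoRNA host genes the highest values at a start were found for UBAP2L (−log10 q 10.5), RPL12, a ribosomal protein gene (4.31), SRCAP, a chromatin remodeller gene (3.87), and EIF4A1, a translation initiation factor gene (3.8). The peak at EIF4A1 is also the peak at ENSG00000264772, an overlapping lncRNA gene. All of these were higher than any start peak of the 10 hosts. Of 18 genes for snoRNP proteins and assembly factors, which package the snoRNAs, 5 (27.8%) had a peak, beside 25.1% of protein-coding genes. A peak at a start was found in 2 of the 18 (11.1%), beside 15.7% of protein-coding genes. The 2 genes were TGS1, the enzyme that hypermethylates snoRNA caps (−log10 q 1.27), and PIH1D1, a member of the R2TP assembly complex (0.982).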

How the data were processed

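YTHDC1 ChIP-seq was performed in A549 cells in 3 replicates of 1 group. By the methods of the study, chromatin was fixed with formaldehyde and sonicated, reads were aligned to hg19, and those of all replicates were pooled for MACS2 with broad calling (q-value 0.1, broad cutoff 0.25). The methods name Bowtie2, whereas the submitters' processing notes name BWA, deepTools and MACS2. The sources used here name no control library. The deposited peak list gives 1 value per peak, which was read as −log10 q because its minimum of 0.61 lies just above 0.602, the −log10 of the broad cutoff. Depth is unknown, and no depth-based interval was computed.

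The gene annotation was GENCODE release 44 lifted to GRCh37, on chromosomes 1 to 22, X and Y. A peak counted by an overlap of 1 base or more with the gene and 1000 flanking bases, or with 200 bases on both sides of a start. The commonest start of a gene is the one with the most annotated transcripts, often a minority of them, or of equal ones the one farthest 5'. Sequences were cut from GRCh37. RefSeq (GRCh38.p14) served only for snoRNA names. Repeated 31-mers are those found more than once on either strand of the assembly. No test was run, since a pooled set has no replicate values and single peaks carry no error. Overlap counting was tested on simulated intervals. The hosts, the gene lists and the motifs were chosen with earlier results of these data known. The text names all 10 hosts, the other SNHG and snoRNP genes with a peak at a start, the 5 other hosts with the highest value at a start, and genes starting within 1000 bases on the other strand. Alternatives changed the flank, the window, the start definition, the peak threshold and the overlap rule. Computations were run in Python 3.11.15 (numpy 2.4.6, pandas 2.3.3, numba 0.67.0, matplotlib 3.10.9).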

Additional observations from a re-analysis of the deposited data

How the results depend on the processing

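The number of hosts with a peak was 9 and stayed at 8 or 9 with flanks of 0, 500, 2000 and 5000 bases. The share of all genes was 9.06%, 10.6%, 12.1% and 13.9% with these flanks. With the peak midpoint inside it was 8 hosts, beside 11% of all genes. In the span shared by at least 50% of the transcripts, a setting chosen after seeing the data, it was 7 hosts, without SNHG8 and SNHG16. For that span the share of all genes was not computed. The count fell to 3 hosts and 3 peaks, at SNHG1, SNHG3 and SNHG16, both for peaks with a q-value under 0.05 and for peaks at or above the median of all peaks. Most peaks at these hosts lie below either threshold. The share of all genes was 6.36% and 6.14% with these thresholds. The number of hosts with a peak at a start moved most. It was 3 with the window of 200 bases, beside 6.36% of all genes, not adjusted for the number of starts per gene. It was 5 with windows of 500 bases (7.78% of all genes) and 1000 bases (8.65%), which add SNHG3 and SNHG6. With the midpoint inside the window it was 1, SNHG5, beside 4.21% of all genes. It was 0 with the 5' end of the gene (4.43% of all genes), with q-values under 0.05 (3.65%) and with peaks at or above the median (3.51%). The canonical start (4.78%) and the commonest start (4.63%), both chosen after seeing the data, also gave 0. The count of annotated snoRNAs under a peak was 0 under all 4 alternatives tried, which could not have changed it. They were stricter rules, or a margin of 100 bases, and the nearest peak lay 960 bases away. The background share of 11.2% was 25.1% for protein-coding genes, 9.58% for lncRNA genes and 29.5% for other snoRNA hosts. No paired analysis was possible because the 3 replicates were pooled before peak calling, and for the same reason no replicate could be left out. With no control library named in the sources used and with unknown depth, a missing peak does not show that YTHDC1 was absent.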
